A study of Arabidopsis thaliana with 53 samples.

Results

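The 32 genes described here encode the machinery of mitosis and cytokinesis in Arabidopsis thaliana. They comprise the genes of 8 A-type and 9 B-type cyclins, 4 B-type cyclin-dependent kinases (CDKs) and further proteins of spindle assembly, anaphase, cell plate formation and G2/M transcription. They were taken by gene identifier from the 27501 genes of the count table, and all 32 were present. These genes, and the lists set beside them, were chosen with earlier results of these data known. The study had already reported cell division and the mitotic cell cycle among the terms raised in virescent plants. The lists are therefore not independent of that result. Their messenger RNA was followed over the 53 leaf libraries as a sign of cell division that remains in mature leaves.

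A plant cell enters mitosis when CDKs bound to A- and B-type cyclins become active, and B-type CDKs are known from plants and algae. The cyclins are destroyed after the CDC20 activators switch on the anaphase-promoting complex. Aurora kinases and TPX2 act on the spindle, while PLE (MAP65-3), the kinesin HINKEL and the syntaxin KNOLLE build the cell plate. MYB3R1 and MYB3R4 are transcription factors that bind the mitosis-specific activator (MSA) element, with core AACGG, in front of many G2/M genes. A growing leaf stops mitosis from tip to base, after which dividing cells are found mainly in the stomatal lineage and the vasculature.

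The plants descended from Col-0 seeds germinated on 160 µM etoposide, a topoisomerase II poison that leaves DNA double-strand breaks, or on its solvent DMSO. The progeny of 4 lines were sampled as mature leaves at 32 days, 1 plant per library, in the M3 generation. For each of 3 lines, 6 plants with a phenotype were set beside 4 normal-looking relatives. The phenotypes were BR-like dwarfism, short-internode dwarfism and virescence, in which greening is delayed. The variegated line gave 1 white plant, 3 green plants with variegated progeny and 10 green plants without. The controls were 9 DMSO plants, which the labels give as M2. In these 3 lines the plants with a phenotype belonged to 2 M2 families and their relatives to a different one, which means that phenotype cannot be told apart from family. Virescent replicate 1 is a virescent plant by its label, although the study elsewhere lists the same plant as a relative.

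Libraries held 29739361 to 116654254 counts (median 47326147). Levels are given as CPM (counts scaled to a common library size) after TMM scaling. DMSO replicate 5 stood apart. It had the highest total and yet the fewest genes with a count, 18617 against 19842 to 21729 in the other 52 libraries. In it 10 of the 32 mitotic genes had no count while the other 22 had 1 to 3571, and at most 7 were at 0 in any other library. It stays in the fits as the study kept it. Medians without it are given for the comparisons with DMSO, and other values without it only where stated. Mesophyll genes, as markers of leaf tissue, summed to 9381 to 44688 CPM over the 53 libraries. Libraries that, by the deposited mean normalized counts, the study left out of its tests (DMSO replicate 2, short-internode relatives 1 and 2, virescent relative 4) were left out of the tests of each line here too, enter the 1 fit over 53 libraries, and are shown in every description.

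The MSA core was looked for first, because it is what the promoters of these genes could share and the choice of genes did not use it. AACGG, or its reverse complement CCGTT, was searched on both strands from 250 bases before to 50 bases after the annotated start of each gene (TAIR10.1). It was found at least once for 21 of the 32 genes (65.6%), against 24.7% of 27443 protein-coding genes. At least 3 copies were found for 11 of the 32 genes (34.4%), against 1.06% of coding genes. The stretches below lie upstream of the start and are shown because they hold paired copies of the core, which stands in capitals. They come from chr5:1861730-1861789 (minus strand), chr3:3627296-3627355 (minus), chr2:7663954-7664013 (plus), chr4:16901418-16901477 (plus), chr1:7137889-7137948 (minus) and chr5:20964620-20964679 (minus).
CYCB1;2: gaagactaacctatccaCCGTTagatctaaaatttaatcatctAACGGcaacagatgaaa
CYCB1;3: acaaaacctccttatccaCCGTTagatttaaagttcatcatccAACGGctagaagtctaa
CYCB2;1: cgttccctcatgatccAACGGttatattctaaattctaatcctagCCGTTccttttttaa
CYCB2;2: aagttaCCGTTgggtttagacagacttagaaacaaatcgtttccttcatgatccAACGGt
CYCB2;3: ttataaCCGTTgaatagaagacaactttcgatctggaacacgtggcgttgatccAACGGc
PLE: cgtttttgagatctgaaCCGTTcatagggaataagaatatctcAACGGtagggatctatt
All are printed 5′ to 3′ on the strand of the gene. They belong to 5 B-type cyclins and to PLE. CCGTT comes before AACGG in all of them but CYCB2;1, where the order is reversed. The spacing of the cores is the same in CYCB1;2 and PLE, and the same in CYCB2;2 and CYCB2;3. CYCB1;3 and CYCB2;1 each have a spacing of their own. Stretches of the same length before CYCA1;1, CYCA1;2, CYCA3;1, CYCB1;1 and TPX2 also held 2 copies and are not printed. No AACGG lay in the windows of CDKB1;1, CDKB1;2, CDKB2;1, CYCA2;2, CYCA2;3, CYCA2;4, CYCA3;2, CYCB2;4, AUR3, CDC20.1 and MYB3R1. A match is only a description of the letters in this window.

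Messenger RNA of the 32 genes was scarce but nearly always present. Over the 53 libraries 30 of them averaged under 5 CPM and 11 under 1 CPM. In all, 47 of 1696 values were 0, and 31 libraries had a count for every gene. Compared per kilobase of exon, MYB3R1 (AT4G32730) was the highest at 4.55 ± 0.813 CPM per kb (SD, n = 53), followed by CYCA3;2 (AT1G47210), an A3-type cyclin, at 3.88 ± 2.58. KNOLLE (AT1G08560) followed at 2.70 ± 1.78, CDKB2;1 (AT1G76540) at 2.30 ± 1.38 and CDC20.1 (AT4G33270) at 1.84 ± 1.199 CPM per kb. The neighbours in this order lay well within each other's SD. At the low end stood CYCB2;1 (AT2G17620) at 0.0881 ± 0.103 and CYCA2;1 (AT5G25380) at 0.0559 ± 0.0604 CPM per kb, each of them at 0 in 13 libraries. CDC20.1 and CDC20.2 lie next to each other and share 37.3% and 40.2% of their 31-base words, so the division of reads between them is uncertain. The same holds in part for CYCB1;2, which shares 19.4% with CYCB1;5, and CYCB2;3, which shares 19.6% with AT1G20590.

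MYB3R1 behaved unlike the others. Its coefficient of variation over the 53 libraries was 17.9%, against 42.8% for CDKB2;2, the next lowest, and 116.6% for CYCB2;1, the highest. For 29 of the 32 genes it was above 50%. MYB3R1 stayed between 11.6 and 26.9 CPM, a range of 2.31-fold, where CYCA3;2 spanned 14.7-fold and KNOLLE 45.9-fold. MYB3R4, its close relative, varied like a cyclin, from 0.247 to 6.21 CPM.

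**Figure D1:**
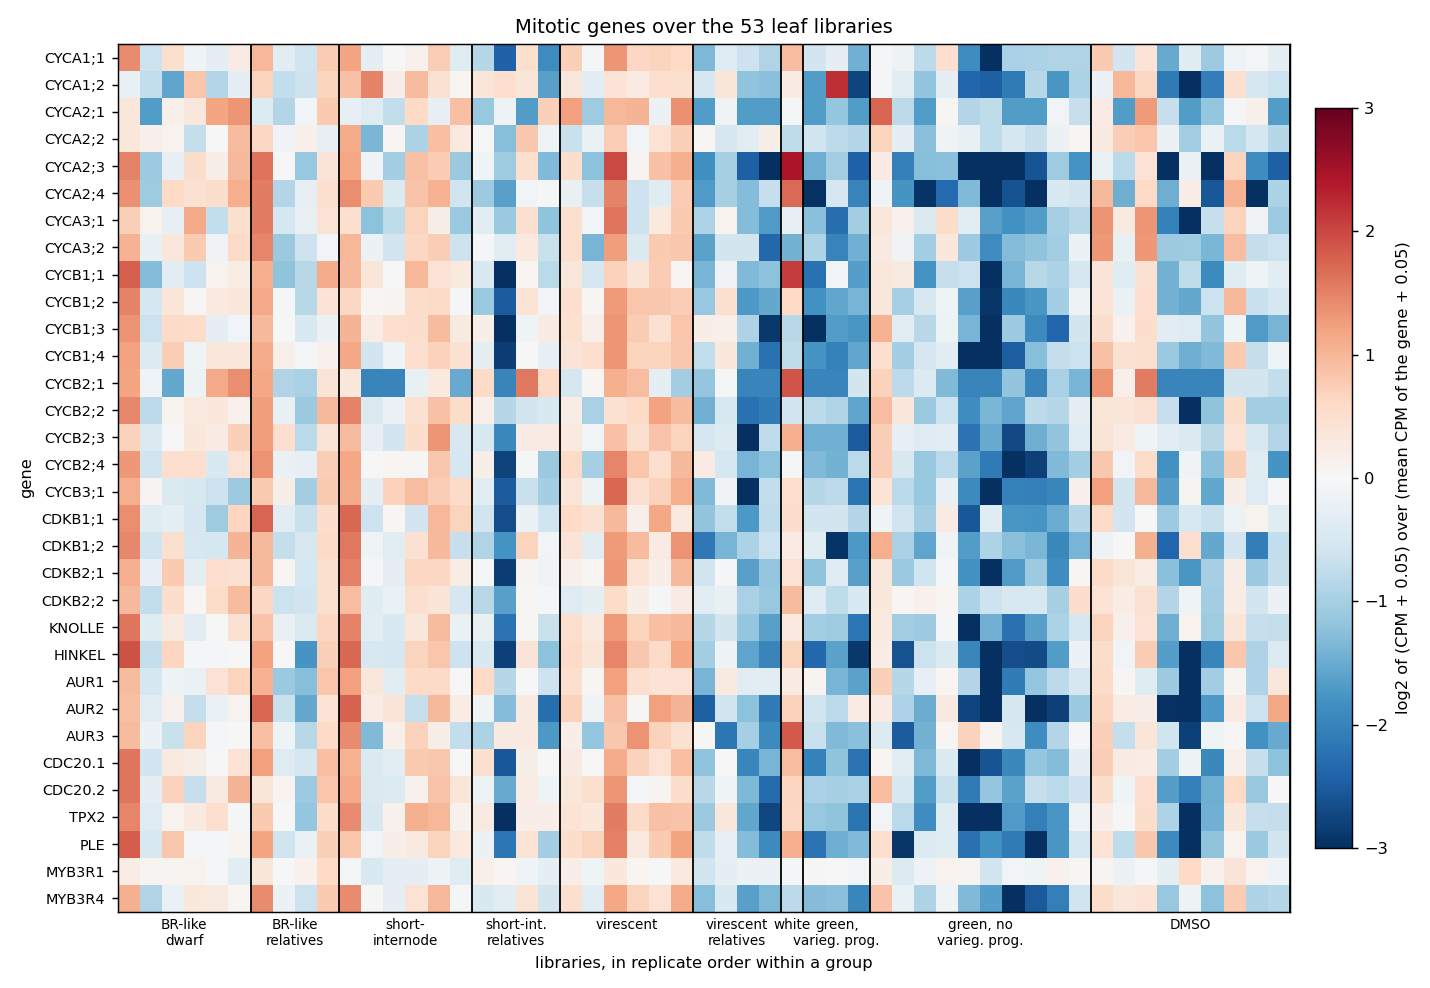
Each row is 1 of the 32 genes and each column 1 of the 53 libraries, grouped by line with black dividers; colour is the log2 of the CPM (plus 0.05) over the mean CPM of that gene (plus 0.05). Whole columns are red or blue, as in BR-like dwarf replicate 1 and short-internode relative 2, while the MYB3R1 row stays near white.

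Plants of the same group differed widely in their mitotic transcripts. The summed level of the 32 genes ran from 22.95 to 137 CPM over the 53 libraries, a 5.97-fold range. MYB3R1 and CYCA3;2, the most abundant of the genes, weigh heavily in this sum. Without them it ran from 9.06 to 102 CPM. BR-like dwarf plants held 137, 52.5, 76.6, 73.1, 66.8 and 79.9 CPM, and their relatives 128, 55.2, 49.1 and 94.8 CPM. Replicate 1 was the highest plant of both groups, and their ranges overlapped almost wholly. Dwarf replicate 1 also had the highest summed level of young leaf genes of the 6 dwarf plants, 37.1 CPM, against 11.5 to 20.01 CPM in the other 5, and their part in its mitotic level was not tested. Short-internode dwarf plants held 125, 55.3, 54.0, 82.7, 96.5 and 57.1 CPM, against 62.6, 35.8, 71.4 and 48.5 CPM in their relatives. Here too the ranges overlapped, with 3 of 6 dwarf plants inside the range of the relatives.

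Virescent plants held 81.8, 58.9, 134, 80.4, 89.99 and 106 CPM, against 35.5, 55.2, 34.8 and 31.4 CPM in their relatives. Every virescent plant was above every relative, and of the 3 lines with 6 phenotypic plants this was the only one in which they did not overlap their relatives. In the variegated line the white plant held 83.7 CPM, the green plants with variegated progeny 38.1, 43.6 and 31.9 CPM and those without 82.4, 44.6, 40.4, 61.9, 32.6, 22.95, 30.0, 32.96, 39.1 and 54.4 CPM. The white plant was above the 13 green ones, though close to the highest of them. Without MYB3R1 and CYCA3;2 its sum was 63.8 CPM, against at most 54.1 CPM in the green plants. DMSO plants spanned 33.5 to 95.6 CPM (median 51.0, n = 9), or 33.5 to 95.6 CPM with a median of 55.7 without replicate 5. The DMSO range took in all 4 short-internode relatives, while 31.4 CPM in 1 virescent relative lay under it.

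**Figure D2:**
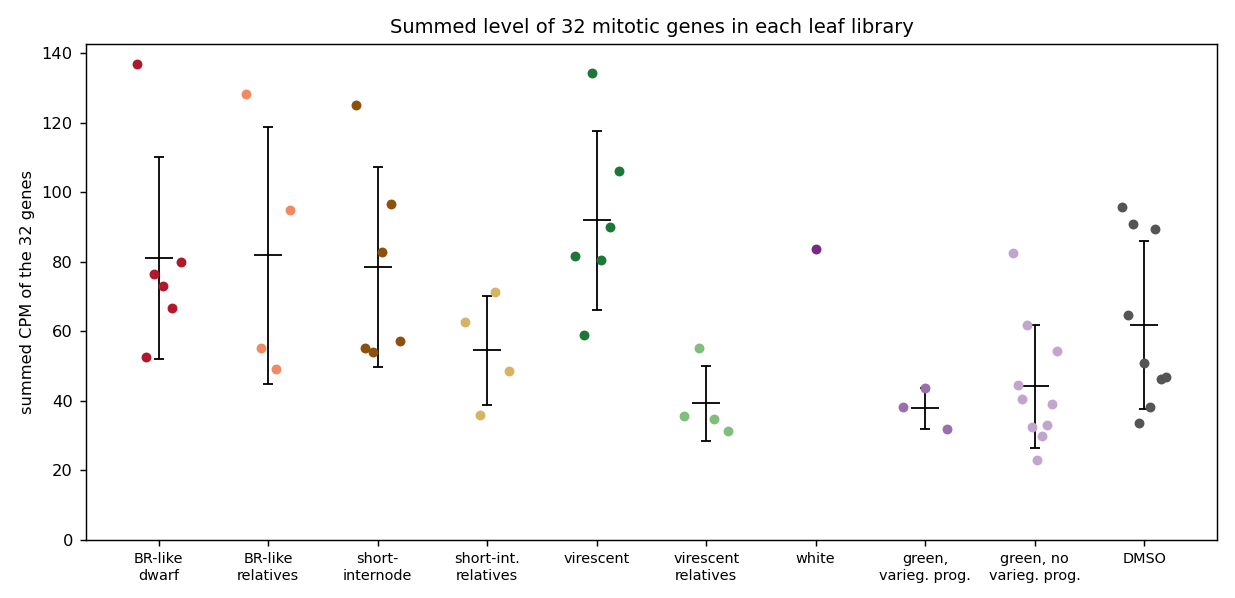
Summed CPM of the 32 genes (vertical axis) in each of the 53 libraries (points), by group; bars are the mean ± SD, and the white plant has neither. The 6 virescent plants (58.9 to 134 CPM) all lie above their 4 relatives (31.4 to 55.2 CPM), and in the BR-like and short-internode dwarf lines the ranges overlap.

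In most groups the majority of the genes were highest in the same plant. In BR-like dwarf plants 26 of the 32 genes had their highest value in replicate 1, in their relatives 27 in replicate 1, and in short-internode dwarf plants 27 in replicate 1. In virescent plants 24 genes were highest in replicate 3 and 24 were lowest in replicate 2. The exceptions were the green plants with variegated progeny (14 of 32 genes highest in replicate 2) and the DMSO plants (11 of 32 highest in replicate 1). In the plant with the lowest sum, 7 of 32 genes were lowest in short-internode dwarf plants, 9 in DMSO plants and 12 in virescent relatives. It was 15 to 24 in the other groups. These plants were picked by the sum of the same genes, so the counts follow in part from that choice. The share of all genes highest or lowest there is not given. By the family read from library names, DMSO plants held 64.6 to 95.6 CPM in 1 family, 33.5 to 51.0 CPM in another and 46.3 to 89.3 CPM in the last (n = 3 each). Replicate 1 held the highest sum in 5 of the 9 groups with replicates, and the labels do not say what a replicate number shares across groups. In bulk leaf RNA, fewer dividing cells and less RNA per dividing cell cannot be told apart.

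The comparison of virescent plants with their relatives asks whether mitotic transcripts differ where greening is delayed. All 32 genes had a higher mean in virescent plants and the median of their log2 fold changes was 1.48, when 49.4% of all 19317 genes tested were higher and their median was -0.01. Only CDKB1;1 passed both thresholds (edgeR quasi-likelihood test, Benjamini-Hochberg adjusted p under 0.01 and a fold change over 2), against 1.03% of all genes called higher and 2.95% called either way. At an unadjusted p under 0.05 there were 14 of 32 genes (43.8%), all higher, against 33.1% of all genes in either direction. In 14 of 32 genes every virescent plant was above each of the 3 relatives tested, against 14.5% of all genes. With the left-out relative 4 included it was 13 of 32. Without DMSO replicate 5, which enters the fit of the spread, 21 genes were under an unadjusted p of 0.05, against 36.4% of all genes, and CDKB1;1 was again the single call. The 14 genes were CYCA1;1, CYCA2;4, CYCB1;4, CYCB2;3, CDKB1;1, CDKB1;2, CDKB2;1, KNOLLE, HINKEL, AUR2, CDC20.2, PLE, MYB3R1 and MYB3R4.

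CDKB1;1 (AT3G54180), a B-type CDK that keeps cells in the mitotic cycle and is needed for the last divisions of the stomatal lineage, measured 1.03, 0.922, 1.35, 0.742, 1.55 and 0.815 CPM in virescent plants, against 0.265, 0.372, 0.165 and 0.366 CPM in their relatives. The groups did not overlap, and both virescent families were above all 4 relatives. The log2 fold change was 1.99 (SE 0.447, adjusted p = 0.00759 by edgeR, higher in 6 of 6 plants). These values rest on 30 to 68 counts per virescent plant and 10 to 19 per relative. The call was kept in 9 of 17 fits that left out 1 library and was lost without virescent replicate 1, 3, 5 or 6, without any of the 3 relatives, and without DMSO replicate 8, where the adjusted p lay between 0.0103 and 0.0414. It was also lost with virescent plants from only the first M2 family (adjusted p = 0.0333) or the second alone (0.0536), while the log2 fold change stayed between 1.74 and 2.30 over all alternatives. Without virescent replicate 1, the plant with the conflicting listing, it was 2.00 (adjusted p = 0.0146 by edgeR). DMSO plants ranged from 0.286 to 1.01 CPM (median 0.499), and against them the virescent log2 fold change was 0.89 (SE 0.304, adjusted p = 0.0505 by edgeR). The gene overlaps AT3G54190 by 71 bases on the opposite strand, and that gene differed by -0.32 (log2, adjusted p = 0.0641 by edgeR) in the same comparison. Of its paralogue CDKB1;2 (AT2G38620), virescent plants held 0.452, 0.256, 0.893, 0.692, 0.409 and 0.928 CPM, against 0.0378, 0.0980, 0.149 and 0.197 CPM in relatives. Its log2 fold change was 2.63 (SE 0.931, adjusted p = 0.0587 by edgeR). That gene did not pass, at 10 to 41 counts per virescent plant and 2 to 9 per relative. The B2-type CDKs, which peak at G2/M, differed by 1.22 (CDKB2;1, SE 0.518) and 0.58 (CDKB2;2, SE 0.359), and neither passed. CDKB2;1 overlaps AT1G76530 by 44 bases on the opposite strand, which was called lower in virescent plants (log2 fold change -3.18, adjusted p = 0.00759 by edgeR).

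Among cytokinesis genes KNOLLE stood out. It measured 5.33, 4.58, 9.15, 5.93, 7.03 and 7.45 CPM in virescent plants, against 2.06, 2.53, 1.65 and 1.18 CPM in relatives, with no overlap. The log2 fold change of 1.66 (SE 0.425) missed the threshold at an adjusted p of 0.0152 by edgeR, and passed in DESeq2. KNOLLE overlaps the end of NPQ1, an abundant photosynthesis gene (120 CPM on average), by 464 bases on the opposite strand, and NPQ1 differed by 0.27 (log2, adjusted p = 0.125 by edgeR). The libraries were made with a kit that keeps strand, but the use of strand in counting is not given in the sources used here, so reads of the shared bases cannot be assigned with certainty. CDKB1;2, CDKB2;2, AUR1, AUR2, AUR3, TPX2 and MYB3R1 also overlap a gene of the opposite strand, by 126 (AUR3) to 877 bases (AUR2), and CYCA2;3 does so by 48. HINKEL, PLE and TPX2 had log2 fold changes of 1.73, 1.65 and 1.40 with SEs of 0.901 to 0.981, and none passed.

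The cyclins went the same way with wide errors. The 8 A-type cyclins had log2 fold changes of 0.51 (CYCA2;2) to 2.73 (CYCA2;1), and the 9 B-type cyclins of 0.87 (CYCB1;3) to 2.17 (CYCB3;1); none passed the thresholds. CYCA1;1 was nearest, at 1.50 (SE 0.480, adjusted p = 0.0406 by edgeR), and its 1.74, 1.02, 2.70, 1.63, 1.71 and 1.61 CPM in virescent plants did not overlap the 0.378, 0.784, 0.661 and 0.535 CPM of relatives. CYCA3;2, the most abundant cyclin, measured 9.87, 2.64, 16.6, 5.14, 12.1 and 12.3 CPM in virescent plants, against 2.25, 4.76, 4.73 and 1.32 CPM in relatives. Virescent replicate 2 fell inside the range of the relatives, and the log2 fold change of 1.31 (SE 0.689) did not pass (adjusted p = 0.195 by edgeR). CYCB1;1, the cyclin used as a reporter of dividing cells and known to respond to DNA breaks, was at 0.688, 0.358, 0.893, 0.717, 0.933 and 0.543 CPM in virescent plants, against 0.170, 0.490, 0.182 and 0.197 CPM in relatives. Those groups overlapped, at a log2 fold change of 1.29 (SE 0.599, adjusted p = 0.142 by edgeR).

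The lowest cyclins gave too few counts to compare. CYCA2;1 had 0.323, 0.0256, 0.266, 0.272, 0.0910 and 0.362 CPM in virescent plants (1 to 16 counts), against 0, 0.0980, 0 and 0 CPM in relatives (0 to 5 counts). CYCB2;1 had 0.0860, 0.154, 0.362, 0.321, 0.114 and 0.0453 CPM in virescent plants, against 0.0378, 0.137, 0 and 0 CPM in relatives. Both pairs of groups overlapped, so no difference was detectable at this depth.

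The regulators varied in size of difference. MYB3R4, the activator whose level itself cycles, measured 3.27, 1.79, 5.21, 3.71, 3.14 and 5.07 CPM in virescent plants, against 0.927, 1.67, 0.711 and 0.874 CPM in relatives. Its log2 fold change was 1.74 (SE 0.513, adjusted p = 0.0291 by edgeR), with no overlap. MYB3R1 measured 20.19, 16.0, 22.0, 18.4, 17.9 and 21.7 CPM in virescent plants, against 11.6, 14.5, 15.7 and 15.7 CPM in relatives. This was the smallest difference of the 32, 0.47 on the log2 scale (SE 0.167, adjusted p = 0.0625 by edgeR), though the groups were separate. CDC20.1 measured 4.67, 3.82, 8.40, 6.28, 5.25 and 7.26 CPM in virescent plants, against 1.65, 3.88, 0.958 and 1.44 CPM in relatives, and virescent replicate 2 and relative 2 overlapped narrowly. AUR3 (AT2G45490), an Aurora kinase of centromeres, measured 0.409, 0.128, 0.652, 0.964, 0.591 and 0.498 CPM in virescent plants, against 0.359, 0.0392, 0.149 and 0.0564 CPM in relatives, also with overlap. The other Aurora kinases, AUR1 and AUR2, which act on the spindle, differed by 0.92 (SE 0.861) and 2.18 (SE 1.14) on the log2 scale, and CDC20.2 by 1.23 (SE 0.600), none of which passed.

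**Figure D3:**
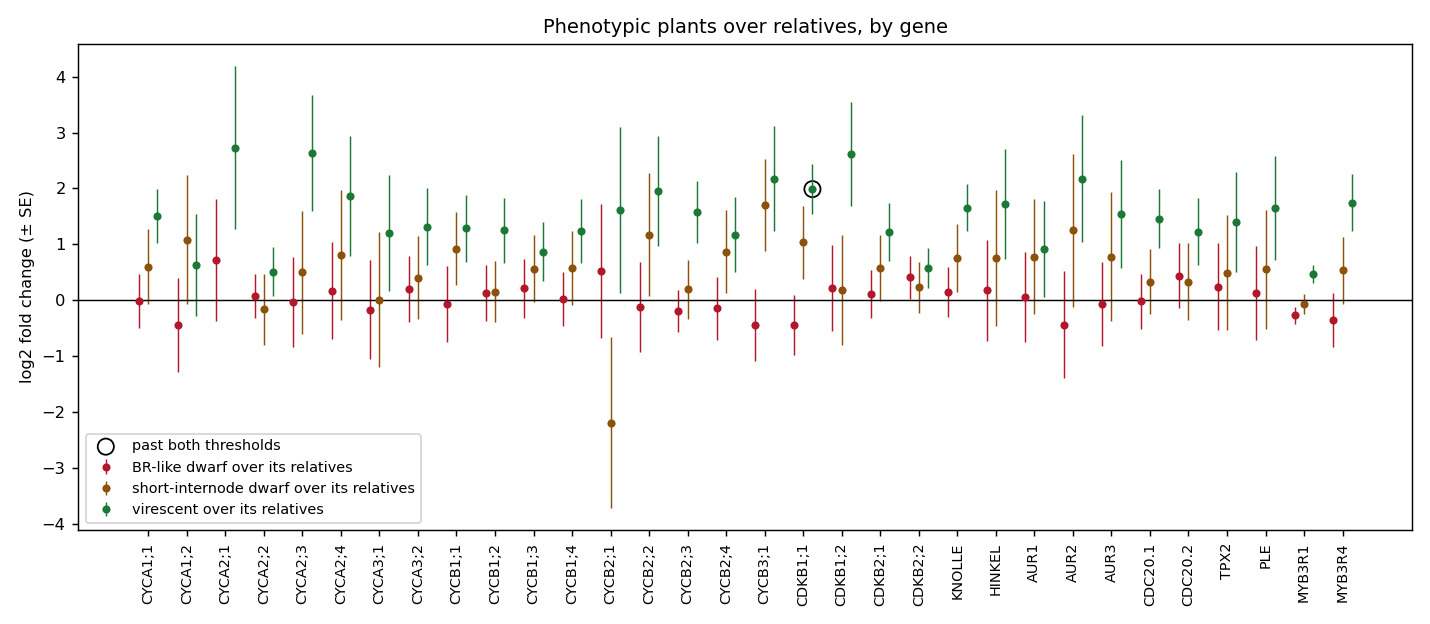
Log2 fold change of phenotypic plants over relatives (vertical axis, bars are 1 SE) for each of the 32 genes, in the virescent, short-internode and BR-like dwarf lines; CYCA2;1 was not tested in the short-internode line. All 32 virescent points lie above 0, and the circle marks CDKB1;1, the single gene past both thresholds.

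Against DMSO plants the same virescent plants were again higher for 32 of 32 genes (median log2 fold change 0.87), but 0 genes passed the thresholds, against 2.73% of all genes. Of the 32 genes 9 were under an unadjusted p of 0.05, against 34.4% of all genes, and DESeq2 called none. KNOLLE was the nearest at 0.93 (SE 0.297, adjusted p = 0.0371 by edgeR), and NPQ1, which it overlaps, differed by 0.62 (log2, adjusted p = 0.000278 by edgeR). The relatives themselves were below DMSO for 29 of 32 genes, with a median of -0.57, and 0 genes passed, against 0.223% of all genes; 2 genes, CDKB1;1 and MYB3R1, were under an unadjusted p of 0.05, against 18.9% of all genes. DESeq2 called none there. These 3 comparisons share their samples, so their values stand side by side and are not independent. Without DMSO replicate 5 the medians were 0.79 for virescent plants and -0.68 for relatives, each against DMSO. The median of the relatives was -1.13 without relative 2 and -0.36 without relative 3.

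Genes of DNA replication, which act in S phase, were fixed as a separate list of 14. In virescent plants against relatives 14 of 14 were higher (median log2 fold change 1.52), 13 of them under an unadjusted p of 0.05 (33.1% of all genes), and none was called (2.95% of all genes). MCM4 (1.69, SE 0.407, adjusted p = 0.0110 by edgeR) and MCM2 (1.56, SE 0.398, adjusted p = 0.0147 by edgeR), subunits of the replicative helicase, were the nearest. The summed replication level was 108.6 to 409.6 CPM in virescent plants and 84.5 to 108.8 CPM in relatives, which overlapped narrowly. Against DMSO the virescent median was 0.23, with 0 of 14 under an unadjusted p of 0.05 (34.4% of all genes), while the relatives were lower for 14 of 14 with a median of -1.27 and 13 of 14 under 0.05 (18.9% of all genes). Of 15 further mitotic genes (kinesins POK1 and POK2, the checkpoint protein BUBR1, the centromeric histone CENH3 and others), 15 were higher in virescent plants than in relatives, with a median of 1.60, 8 of them under an unadjusted p of 0.05, and none was called. Genes of G1 and S-phase entry were less uniform, with 11 of 14 tested higher, 4 higher and 1 lower of them under an unadjusted p of 0.05 (median 0.42), and so were genes of cycle exit and endoreduplication, with 14 of 15 higher, 5 higher and 1 lower of them under 0.05 (median 0.48). None of either list was called.

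Markers of other cell states moved with this difference in part. All 10 stomatal lineage markers had a higher mean in virescent plants than in relatives, and their summed level was 32.2 to 47.2 CPM in virescent plants and 22.6 to 32.4 CPM in relatives. FAMA made up most of it, with a mean of 33.7 CPM in virescent plants and 24.6 CPM in relatives. Only 5 of the 10 had enough counts to be tested, 4 of them under an unadjusted p of 0.05 and none called. Over all genes 33.1% were under that p and 2.95% were called, shares that hold for each list here. MUTE and SDD1 were at 0 in all 4 relatives, and MUTE also in 3 of 6 virescent plants. Of 5 genes of young, proliferating leaves, GRF5 was at 0 in 5 of 6 virescent plants and in all 4 relatives. The 5 genes summed to 17.4 to 23.2 CPM in virescent plants and 11.3 to 17.3 CPM in relatives. They were not uniform. ANT, GRF1 and GRF2 had a higher mean in virescent plants, and AN3 a lower one (0.781 CPM, against 1.43 CPM in relatives). Of 4 young leaf genes tested, 2 were under an unadjusted p of 0.05 and none was called. Meristem genes were near 0 in both groups, with CLV3 and UFO at 0 in all 10 plants, apart from CLV1, which is expressed beyond the meristem. The 3 cambium markers summed to 51.7 to 78.8 CPM in virescent plants and 33.8 to 46.03 CPM in relatives, with no overlap, against 30.2 to 77.7 CPM in DMSO plants. Of them PXY and ATHB8 had log2 fold changes of 0.81 and 0.57 and WOX4 of -0.29, with PXY alone under an unadjusted p of 0.05 and none called. The 6 mesophyll markers summed to 26500 to 44688 CPM in virescent plants and 21100 to 27452 CPM in relatives. Of them 5 had a higher mean in virescent plants. Under an unadjusted p of 0.05 were 4 (33.1% of all genes), and none was called (2.95% of all genes). The nearest was LHCB2.1 at 1.60 (adjusted p = 0.0104 by edgeR). The part of these cell types in the result was not tested.

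**Figure D4:**
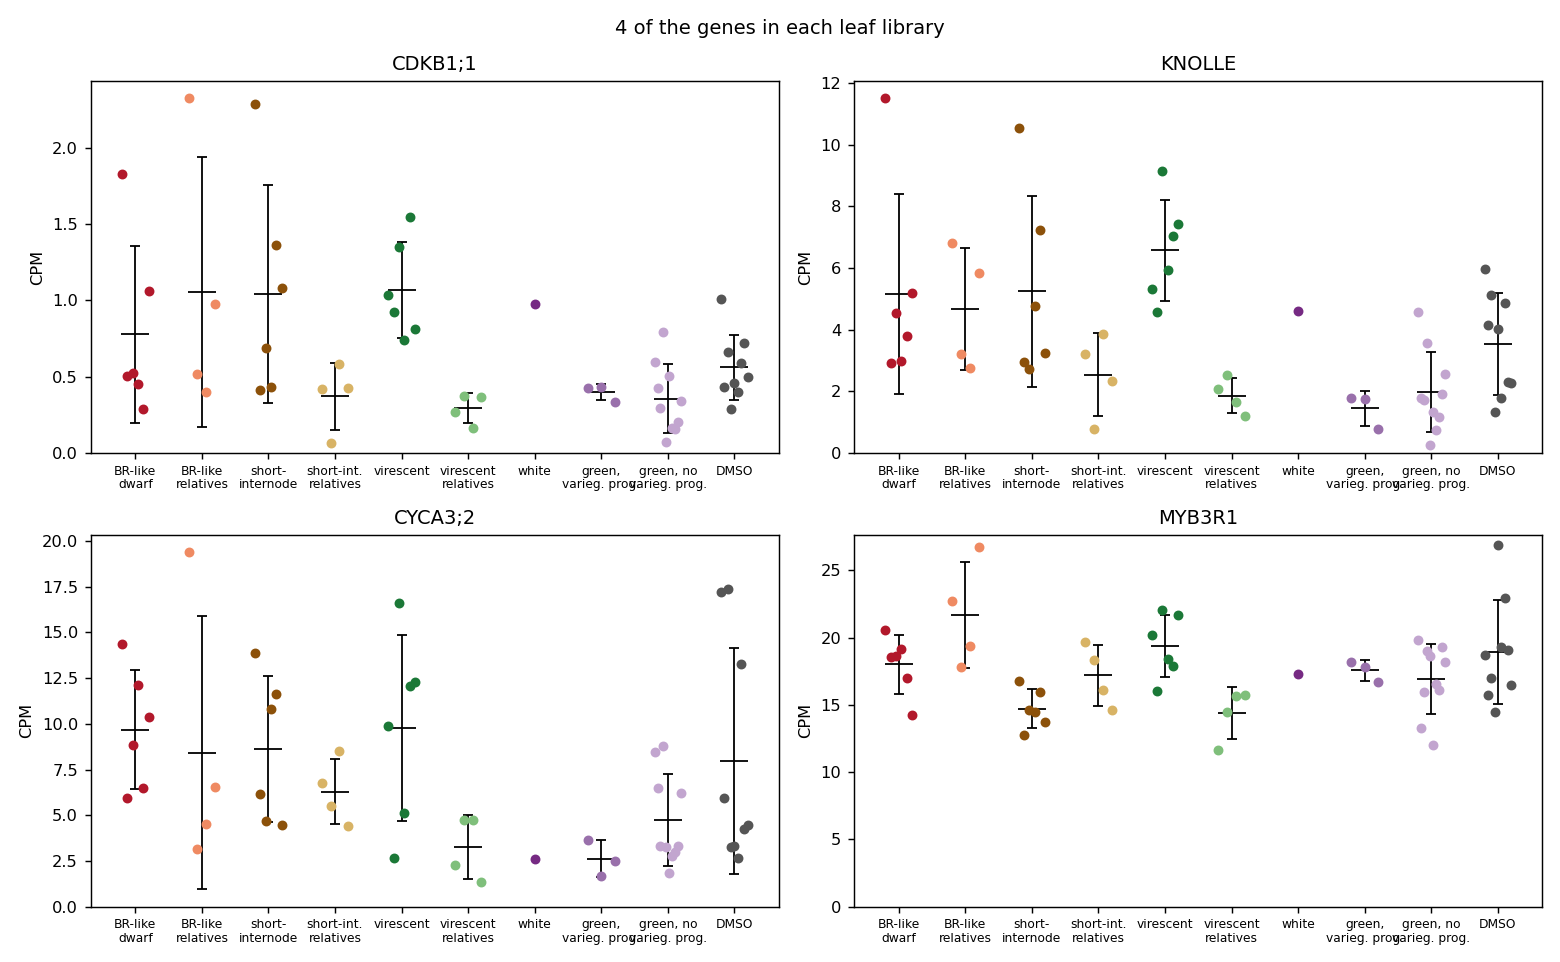
CPM (vertical axes) of CDKB1;1, KNOLLE, CYCA3;2 and MYB3R1 in each of the 53 libraries (points), with the mean ± SD of each group. CDKB1;1 and KNOLLE separate virescent plants from their relatives, CYCA3;2 overlaps there, and MYB3R1 stays between 11.6 and 26.9 CPM.

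In the BR-like dwarf line the question is whether the dwarf plants differ in mitotic transcripts from relatives without the phenotype. No difference was detected. Of the 32 genes 17 were higher and 15 lower (median log2 fold change 0.04), and 0 passed the thresholds, against 0.0871% of all 19515 genes. None reached an unadjusted p of 0.05 either, against 17.6% of all genes, and DESeq2 called none. The median changed sign with 1 plant, to -0.27 without dwarf replicate 1 and to 0.42 without the first relative. KNOLLE measured 11.5, 2.92, 4.54, 2.97, 3.79 and 5.19 CPM in dwarf plants, against 6.81, 3.21, 2.75 and 5.86 CPM in relatives, and the groups overlapped. CDKB1;1 measured 1.83, 0.506, 0.526, 0.453, 0.288 and 1.06 CPM in dwarf plants, against 2.32, 0.517, 0.400 and 0.979 CPM in relatives, again overlapping. CYCA3;2 measured 14.4, 5.96, 8.82, 12.1, 6.48 and 10.3 CPM in dwarf plants, against 19.4, 3.18, 4.52 and 6.55 CPM in relatives, whose replicate 1 was the highest of all 53 libraries. The replication genes were lower in dwarf plants than in relatives for 14 of 14 (median -0.44), and none was called or under an unadjusted p of 0.05.

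No gene separated either BR-like group from DMSO plants, although most means were higher. Against DMSO the dwarf plants were higher for 30 of 32 genes (median log2 fold change 0.63) and the relatives for 32 of 32 (median 0.65). In the dwarf plants 0 genes passed, against 2.67% of all genes, and in the relatives 0 passed, against 0.0% of all genes. In each only 1 gene was under an unadjusted p of 0.05, CDKB2;1 in the dwarf plants (30.3% of all genes) and CYCB2;3 in the relatives (8.06% of all genes), and DESeq2 called none. The first median was 0.40 without dwarf replicate 1, and the second was 0.23 when relative 1 was left out. Without DMSO replicate 5 they were 0.53 and 0.47.

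Short-internode dwarf plants were compared with only 2 of their relatives, since the other 2 were left out. Of 31 genes tested 28 were higher, with a median of 0.57, and 0 passed, against 0.026% of all 19236 genes; 0 were under an unadjusted p of 0.05, against 9.11%, and DESeq2 called none. The median was 0.23 without relative 4 and 1.12 without relative 3. In 2 genes the groups did not overlap with dwarf plants higher, and in 1 with dwarf plants lower, against 9.15% and 8.41% of all genes. CDKB1;1 measured 2.29, 0.413, 0.689, 0.429, 1.36 and 1.08 CPM in dwarf plants, against 0.421, 0.0616, 0.582 and 0.423 CPM in all 4 relatives. KNOLLE measured 10.5, 2.96, 2.71, 4.77, 7.23 and 3.25 CPM in dwarf plants, against 3.21, 0.771, 3.86 and 2.33 CPM in relatives. Relative 2, left out of the test, held the lowest value of both genes.

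Against DMSO plants, short-internode dwarf plants were higher for 28 of 31 genes (median 0.70, or 0.46 without dwarf replicate 1) and 0 passed, against 1.56% of all genes, with 5 under an unadjusted p of 0.05 (33.8% of all genes) and none called by DESeq2. The gene with the lowest p was lower in the dwarf plants. MYB3R1 measured 16.8, 12.8, 14.6, 14.5, 16.0 and 13.7 CPM in dwarf plants, against 14.5 to 26.9 CPM (median 18.7) in 9 DMSO plants, at a log2 fold change of -0.40 (SE 0.120, adjusted p = 0.0333 by edgeR), short of both thresholds. The highest of those DMSO values, 26.9 CPM, came from replicate 5, without which the log2 fold change was -0.31 (adjusted p = 0.0437 by edgeR). Their relatives differed from DMSO by a median of 0.10, with 0 genes passing, against 0.0% of all genes, 0 under an unadjusted p of 0.05 (18.3% of all genes) and none called by DESeq2. That median was -0.41 without relative 3 and 0.44 without relative 4. Without DMSO replicate 5 the medians against DMSO were 0.63 for dwarf plants and -0.0003 for relatives. The relatives were then higher than DMSO for 15 of 31 genes, against 18 of 31 with that replicate.

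Whether the lines differed from each other was tested in 1 fit over the 53 libraries, which takes in the 4 libraries left out above. The virescent difference exceeded the BR-like dwarf difference for 32 of 32 genes, by a median of 1.53 on the log2 scale, and the short-internode difference for 32 of 32 genes by 0.78. None of the 32 genes passed both thresholds in either, the lowest adjusted p being 0.0238 and 0.0259 (edgeR), when 1.96% and 2.53% of all genes did. Unadjusted, 11 and 1 genes were under 0.05, against 24.6% and 28.1% of all genes. The short-internode difference exceeded the BR-like dwarf difference for 30 of 32 genes, none passing (lowest adjusted p = 0.132 by edgeR, 2 genes under an unadjusted p of 0.05, against 22.8% of all genes), against 0.265% of all genes called.

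In the variegated line green plants with variegated progeny were compared with green plants without. The 3 with variegated progeny are all of 1 M2 family, to which only 2 of the 10 without belong, so group and family cannot be told apart for the most part. Within that family the summed mitotic level was 31.9 to 43.6 CPM in plants with variegated progeny and 39.1 to 54.4 CPM in those without. The other 8 plants without came from 2 families, at 40.4 to 82.4 CPM and 22.95 to 32.96 CPM (4 plants each). Plants with variegated progeny were lower than those without for 25 of 30 genes tested. The median was -0.44 (-0.23 without replicate 1 of those without variegated progeny), and 0 passed, against 0.825% of all 19762 genes. None was under an unadjusted p of 0.05, against 9.64% of all genes, and DESeq2 called none. KNOLLE measured 1.79, 1.76 and 0.789 CPM in those with variegated progeny, against 0.251 to 4.56 CPM (median 1.76) in the 10 without. CYCA3;2 measured 3.67, 1.69 and 2.52 CPM in those with variegated progeny, against 1.84 to 8.78 CPM (median 3.33) in those without. Both pairs overlapped. CYCA1;2, whose product is also needed in male meiosis, was the largest exception, at 0.405, 6.77 and 0.168 CPM in those with variegated progeny, against 0.219 to 1.35 CPM (median 0.646) in those without. Only replicate 2 was high, and replicate 3 was below all 10 plants without. Green plants without variegated progeny were below DMSO plants for 30 of 30 genes, with a median of -0.62, or -0.69 without DMSO replicate 5. With that replicate in the fit 0 genes passed, against 0.223% of all genes. None was under an unadjusted p of 0.05 there, against 28.9% of all genes, and DESeq2 called none.

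The white plant is a single plant, so its values have no replicate check and no test. It shares its M2 family with the 3 green plants with variegated progeny and with 2 of those without. Its library had the most genes with a count, 21729. In it 18 of the 32 genes were above all 13 green plants of its line and 14 lay within their range, when of all 24952 genes with a count in any library 22.9% were above and 19.7% below the 13 green plants. By total counts in place of TMM it was 19, and the summed level was 110 CPM instead of 83.7 CPM. Of the 32 genes 5 (15.6%) were above all 52 other libraries, close to the 13.6% of all genes. CYCA2;3, an A2-type cyclin, was at 6.89 CPM in the white plant (95% Poisson interval 6.28 to 7.55), against 0.0179 to 1.44 CPM in green plants. CYCB1;1 was at 2.44 CPM in the white plant (95% Poisson interval 2.08 to 2.84), against 0 to 0.693 CPM. CYCA2;4 was at 1.69 CPM in the white plant (95% Poisson interval 1.39 to 2.03), against 0 to 0.443 CPM. CYCB2;1, close to absent elsewhere, was at 0.677 CPM in the white plant (95% Poisson interval 0.494 to 0.906), against 0 to 0.269 CPM. AUR3 was at 1.37 CPM in the white plant (95% Poisson interval 1.10 to 1.68), against 0.0211 to 0.591 CPM. The intervals cover counting error only. For KNOLLE, CDKB2;1, CDKB1;1 and CYCB3;1, also counted as above the green plants, the interval took in the highest green value. KNOLLE, for example, was at 4.62 CPM in the white plant (95% Poisson interval 4.12 to 5.17), against at most 4.56 CPM in green plants.

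The mitotic genes were not uniform in the white plant. CDC20.1 was at 7.30 CPM in the white plant (95% Poisson interval 6.66 to 7.98), against 0.394 to 4.00 CPM in green plants, and PLE at 2.77 CPM in the white plant (95% Poisson interval 2.38 to 3.20), against 0.120 to 1.85 CPM. CYCA3;2, however, was at 2.59 CPM in the white plant (95% Poisson interval 2.22 to 3.01), inside the green range of 1.69 to 8.78 CPM and below its median of 3.33 CPM. MYB3R1 was at 17.3 CPM in the white plant (95% Poisson interval 16.3 to 18.3), also inside the green range. None of the 14 replication genes was above the green plants by any of the 3 scalings. Their summed level was 99.0 CPM in the white plant, against 51.8 to 332 CPM (median 165) in the green plants. MCM3 was at 3.46 CPM in the white plant (95% Poisson interval 3.03 to 3.94), near the low end of the green range (3.22 to 25.3 CPM).

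**Figure D5:**
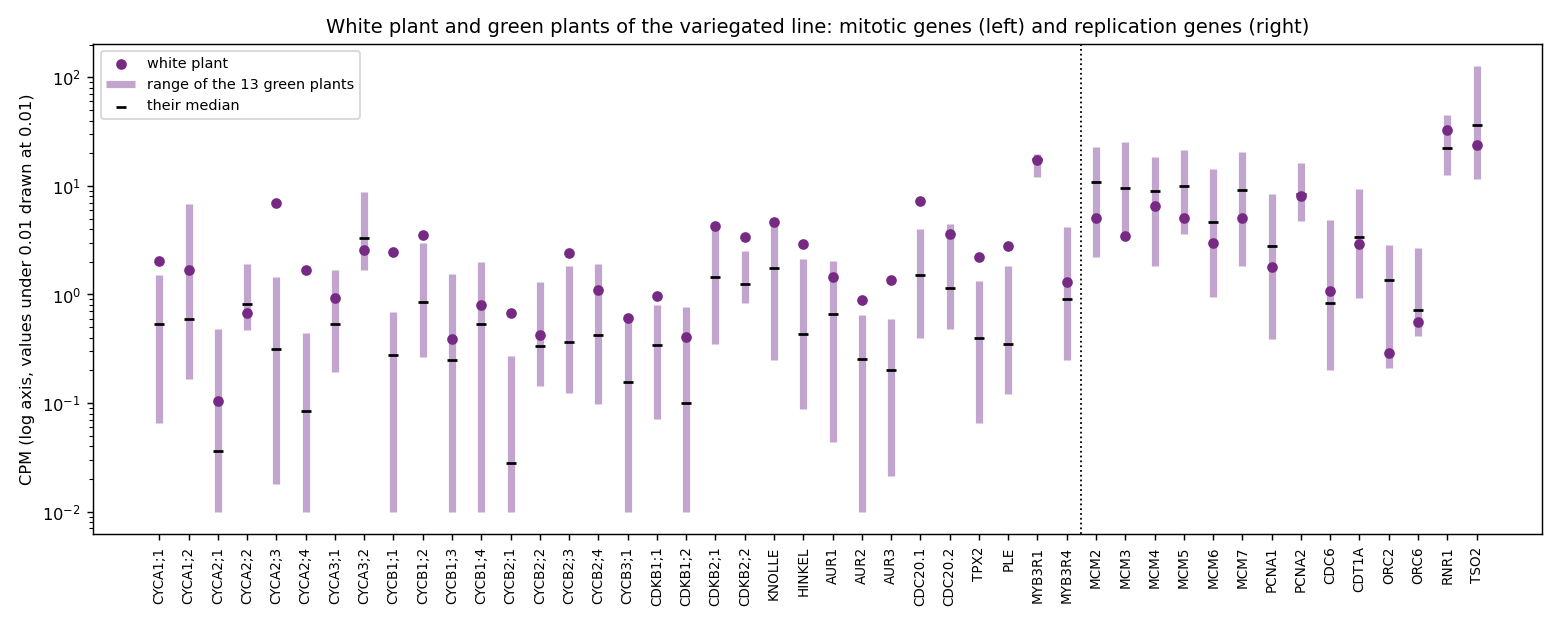
CPM on a log axis of the white plant (points) and the 13 green plants of the variegated line (bars from lowest to highest, dash at the median) for the 32 mitotic genes and, right of the dotted line, 14 replication genes. The white plant lies above the bars for 18 mitotic genes and for no replication gene.

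The same library held transcripts of other organs. Of all genes with a count in any library, 22.9% were above the 13 green plants and 13.6% above the 52 other libraries. All 6 flower genes were above the 52 other libraries, among them AP1 at 4.70 CPM and PI at 5.12 CPM, against at most 0.762 and 0.147 CPM elsewhere. All 10 stomatal lineage markers were above the 13 green plants (summed 64.6 CPM, against 16.98 to 32.6 CPM), with SPCH at 1.61 CPM, against 0 to 0.231 CPM, and MUTE at 1.34 CPM, against 0 in all 13. All 5 young leaf genes were above the green plants too, with GRF5 at 7.10 CPM, against 0 in all 13, and AN3 at 28.9 CPM, against 0.481 to 3.20 CPM. Of 7 shoot meristem genes 6 were above the green plants, STM at 7.48 CPM, against 0 to 0.107 CPM there and up to 10.2 CPM elsewhere. Of these 6, CLV3 rested on 1 count, WUS on 12 and UFO on 19, against no count in the green plants. CLV1 was below them, at 25.4 CPM, against 47.5 to 116 CPM, and the 7 genes summed to 34.9 CPM, against 47.7 to 116 CPM. Mesophyll markers summed to 9399 CPM in the white plant, against 15453 to 28374 CPM, and 4 of 6 were below all 13 green plants. The part of these cell types in the levels of the mitotic genes was not tested.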

How the data were processed

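Estimated counts per gene were deposited by the authors for 53 leaf libraries. The submitters' processing notes name Trim Galore, Salmon and DESeq2, and the study's methods name Araport11 transcripts with the genome as decoy. The counts were rounded (9.27% were not whole) and scaled by TMM to CPM. For each line, phenotypic plants, relatives and DMSO plants entered 1 quasi-likelihood fit in edgeR 4.0.16 (R 4.3.3) over genes that reached 10 normalized counts in 4 or more libraries. A gene was called at a Benjamini-Hochberg adjusted p under 0.01 with a log2 fold change beyond 1. The libraries that entered were those behind the authors' deposited mean normalized count (a signal column), which was used for nothing else. The deposited fold changes and p-values of the authors' own comparisons were not used. Named with full values were the called genes and the 4 highest and 4 lowest by mean CPM; others were named after their values were seen. Members and lists were chosen with earlier results of these data known. The test was also run on simulated data, in which only well-counted genes were changed and the same spread was set for all genes. That run does not cover the scarce genes here, and its outcome is not given. DESeq2 1.42.0, other scalings, filters, thresholds, libraries, families, a replicate block and leaving out each library were tried as alternatives. P-values measure the spread between these plants, which share families. Promoter sequences and gene names were from RefSeq (TAIR10.1), in which 27390 of 27501 gene identifiers were found.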

Additional observations from a re-analysis of the deposited data

Results flagged for a closer look

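In groups of 4 to 10 plants, 8 of the 80 sets of values tested had 1 plant set apart by Dixon's criterion at 95%. The rate of about 1 in 20 holds for independent, normally distributed values. These sets share plants and genes and some lie near 0, so 8 of 80 cannot be compared with it. BR-like dwarf replicate 1 was set apart by the summed level of the 32 genes (137 CPM), by CDC20.1 (11.8 CPM) and by KNOLLE (11.5 CPM). Its young leaf genes summed to 37.1 CPM, against 11.5 to 20.01 CPM in the other 5 dwarf plants, and their part was not tested. For CYCA2;1 the plants set apart were virescent relative 2 (0.0980 CPM), green plant 1 without variegated progeny (0.481 CPM) and DMSO replicate 3 (0.332 CPM). Virescent relative 2 was the only relative with a count of this gene, so any count would have set it apart. The same green plant was set apart by CYCB2;1 (0.269 CPM) and CDKB1;2 (0.770 CPM).

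The white plant enters no test. In it 5 of the 32 genes were above the other 52 libraries, as were 13.6% of all genes with a count, namely CYCA2;3 at 6.89 CPM, CYCB1;1 at 2.44 CPM, CYCA2;4 at 1.69 CPM, AUR3 at 1.37 CPM and CYCB2;1 at 0.677 CPM.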

How the results depend on the processing

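The median log2 fold change of the 32 genes kept its direction in virescent plants against relatives under all 26 alternatives (1.08 to 1.95). The single call there became 4 with an adjusted p under 0.05 and no fold threshold, 4 in DESeq2 and 3 with all labelled libraries. It became 0 with no filter on low counts, with the first or the second M2 family alone and in 1 fit over 53 libraries, and 0 to 2 when 1 library was left out. With no fold threshold at 0.05, 1 gene was called in virescent plants against DMSO and 1 in short-internode dwarf plants against DMSO. Calls over all genes changed between settings too, over the ranges given below. The share of all genes called in each setting is not set beside these counts. More calls in a setting are therefore not a result particular to the 32 genes. The sum of the white plant was 110 CPM by total counts and 86.0 CPM by DESeq2 size factors. The cause of these changes was not tested.

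Same-numbered plants did not all deviate together over the genes tested, so plants were not paired in the main fits. For replicate 1 the correlation ran from -0.24 (virescent relatives and DMSO plants) to 0.60 (green plants without variegated progeny and DMSO plants). Whether some numbers share a condition was not tested. With a replicate block 0 of the 32 genes were called in virescent plants against relatives, CDKB1;1 having an adjusted p of 0.0315 (edgeR).

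Over all genes, calls were 569 in virescent plants against relatives (97 to 3301 over the alternatives other than leaving out a library), 527 against DMSO (94 to 3651) and 43 in relatives against DMSO (29 to 562). They were 17 (3 to 385), 522 (11 to 2789) and 0 (0 to 11) for the same comparisons in the BR-like dwarf line, and 5 (0 to 790), 301 (27 to 3304) and 0 (0 to 547) in the short-internode line. In green plants they were 163 (0 to 381) for variegated progeny against none and 44 (1 to 2500) for none against DMSO.

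Depth limits the scarce genes. CDKB1;1 rested on 10 to 68 counts a library in the virescent line, and CYCA2;1 and CYCB2;1 were at 0 in 13 libraries each.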
